A study of Mus musculus with 18 samples.

Results

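The macrophage and leukocyte genes of the adult mouse heart were followed here by RNA polymerase II (Pol II) and CTCF occupancy. The 10 genes were *Ptprc*, *Csf1r*, *Cd68*, *Lyz2*, *C1qa*, *C1qb*, *C1qc*, *Adgre1*, *Mrc1* and *Spi1*. Their regions were every union peak that the deposited table annotated to one of these symbols, plus every unannotated peak lying inside the gene. This gave 36 of 101256 union peaks, 27 of them annotated to a promoter (gene start within 5000 nt) and 9 inside the gene and unannotated. The peaks covered 9 of the 10 genes, out of 13979 gene symbols with a peak. *Csf1r*, the receptor for the macrophage growth factor CSF1, had no peak under its symbol, so its interval was not given and it has no value in what follows.

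ChIP-seq was done on nuclei of ventricles, with chromatin pooled from 2 adult hearts, and there were 2 Pol II libraries, 2 CTCF libraries and 1 IgG library for each of 3 genotypes. CTCF, a DNA-binding protein that organizes chromatin loops, was the positive control of the study and IgG its background. WT was the control genotype of the labels. *Trdn-as* KO mice carried a polyadenylation site in the first exon of *Trdn-as*, an antisense RNA of the triadin gene, in the germline and thus in every cell. *Mettl3* KO mice were *Mettl3* lox/lox with the MerCreMer recombinase under the alphaMHC promoter, which is active in cardiomyocytes, and lost the RNA methyltransferase METTL3 after tamoxifen given to adults. In this model the recombinase is not driven in macrophages, so these cells were not targeted. The methods of the study describe *Mettl3* lox/lox control mice that also received tamoxifen. Whether the mice behind the WT libraries carried the lox alleles or received tamoxifen is not given in the sources used here. The labels do not say whether the replicate libraries came from separate hearts, and p-values then measure only the spread between these libraries, which may be technical.

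Macrophages are the main resident leukocytes of the heart, where they clear dying cells and debris and take part in conduction and repair. They derive from myeloid progenitors under the transcription factor PU.1, encoded by *Spi1*, and carry the pan-leukocyte phosphatase CD45, encoded by *Ptprc*.

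All values are the authors' normalized counts, that is reads per peak divided by a DESeq2 size factor of the library and rounded to whole numbers. Values of different genes are compared only per kb of peak, and Pol II is set beside IgG in RPM, reads per 1000000 uniquely mapped reads, since the 2 kinds of library were scaled differently. Reads in peaks made up 35.5% to 42.6% of the uniquely mapped reads in 5 Pol II libraries and 18.6% in the *Trdn-as* KO 2 library, which stands apart. Pol II summed over all peaks of *Trdn*, the gene that holds *Trdn-as* on its other strand, was 531 and 665 in WT, 277 and 279 with *Trdn-as* KO and 473 and 443 with *Mettl3* KO. Pol II at the *Mettl3* promoter was 177 and 202 in WT, 203 and 161 with *Trdn-as* KO and 240 and 235 with *Mettl3* KO. A promoter peak does not show the loss of floxed exons, and thus does not check the *Mettl3* KO label.

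Start regions of 5 of the genes are shown because their leading Pol II peak covers the annotated start, which that of *Ptprc* does not, and because they can be read for the core site of PU.1, the product of the single gene that passed the test below. The sequences are RefSeq windows of build GRCm38.p6, matched by symbol, which was possible for 6 of the 10 genes. *Csf1r*, *C1qa*, *Adgre1* and *Spi1* are named only. Each line holds the 250 bases before the start, 5′ to 3′ on the strand of the gene, and capitals mark GAGGAA or its reverse complement TTCCTC.
*Cd68*: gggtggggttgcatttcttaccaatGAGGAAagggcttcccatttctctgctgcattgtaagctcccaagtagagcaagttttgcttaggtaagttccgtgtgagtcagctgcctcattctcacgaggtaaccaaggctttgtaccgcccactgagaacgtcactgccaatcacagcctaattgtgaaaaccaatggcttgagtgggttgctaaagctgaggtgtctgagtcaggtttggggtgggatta
*C1qb*: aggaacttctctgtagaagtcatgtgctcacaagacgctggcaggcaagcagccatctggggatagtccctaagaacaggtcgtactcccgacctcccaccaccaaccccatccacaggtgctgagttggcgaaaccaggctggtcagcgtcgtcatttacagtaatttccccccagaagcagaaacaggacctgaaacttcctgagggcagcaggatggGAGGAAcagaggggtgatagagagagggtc
*C1qc*: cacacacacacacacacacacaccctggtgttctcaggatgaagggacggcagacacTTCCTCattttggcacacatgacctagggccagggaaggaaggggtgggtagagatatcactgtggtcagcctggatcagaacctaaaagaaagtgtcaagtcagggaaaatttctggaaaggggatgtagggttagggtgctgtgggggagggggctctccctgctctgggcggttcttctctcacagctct
*Mrc1*: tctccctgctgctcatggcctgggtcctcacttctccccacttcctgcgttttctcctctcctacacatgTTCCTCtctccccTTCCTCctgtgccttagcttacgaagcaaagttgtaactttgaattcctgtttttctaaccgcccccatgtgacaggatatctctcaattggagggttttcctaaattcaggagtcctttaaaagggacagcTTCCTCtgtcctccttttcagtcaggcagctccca
*Lyz2*: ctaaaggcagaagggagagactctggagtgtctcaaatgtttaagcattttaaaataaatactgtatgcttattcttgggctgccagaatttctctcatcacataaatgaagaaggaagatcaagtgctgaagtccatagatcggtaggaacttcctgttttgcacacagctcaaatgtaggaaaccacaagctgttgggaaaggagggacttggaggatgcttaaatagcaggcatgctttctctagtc

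The windows lie on the minus strand at chr11:69666171-69666420 for *Cd68*, chr4:136886201-136886450 for *C1qb*, chr4:136892915-136893164 for *C1qc* and chr10:117282273-117282522 for *Lyz2*, and on the plus strand at chr2:14229164-14229413 for *Mrc1*. The letters GAGGAA, searched on both strands, occurred in the windows of *Cd68*, *C1qb*, *C1qc* and *Mrc1*, in 1 of the 2 windows of *Ptprc* and not in the window of *Lyz2*, that is in 5 of 7 windows. Among all 32851 RefSeq windows of 250 bases, 23.3% held them. The match started at -225 in *Cd68*, at -30 in *C1qb* and at -193 in *C1qc*, and there were 3 in *Mrc1*, at -180, -167 and -35, counted from -1 at the base before the start. The longer GAGGAAGT, which contains the shorter motif, was found in *C1qc* alone among the 6 genes and in 2.44% of all windows. These matches describe letters and not binding. The letters TATAAA, those of a TATA box, were found in 1 window of *Ptprc* alone among the 6 genes and in 12.4% of all windows. In *Ptprc* the match started at -187 and lay on the strand opposite to the gene, so it too describes letters only.

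Pol II lay above IgG at all 9 genes. The regions are union peaks that the authors called on these same libraries against input. This order was therefore favored by the choice of regions and is a description of level. In RPM, both Pol II libraries of each genotype lay above the IgG library of the same genotype for every gene, and the smallest factor between the lower Pol II library and IgG was 2.23, for *Mrc1* in *Mettl3* KO, with an IgG of 3.91 estimated reads. IgG sums above 0 rested on 1.07 to 25.9 estimated reads, so larger factors are not given. In *Trdn-as* KO, IgG was at 0 for 5 of the 9 genes, which allows up to 3 reads or 0.569 RPM by counting error alone, and the Pol II of those genes was above this limit. *Adgre1* in the *Trdn-as* KO 2 library, with 0.552 RPM of Pol II, was above its IgG of 0.202 RPM and below this limit. Peak by peak, all 6 Pol II libraries exceeded all 3 IgG libraries at 22 of the 36 peaks. The genes summed to an IgG signal of 5.72 RPM in WT, 2.95 with *Trdn-as* KO and 5.45 in *Mettl3* KO. Their Pol II sums were 43.8 and 56.3 RPM in WT, 41.8 and 20.6 with *Trdn-as* KO and 52.6 and 49.8 with *Mettl3* KO.

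**Figure D1:**
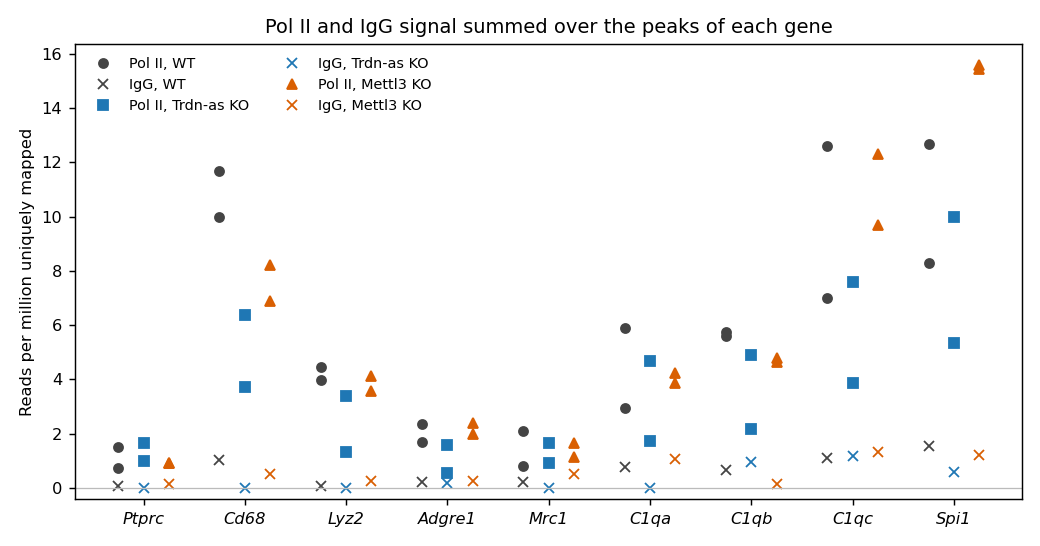
Pol II (filled symbols, 2 libraries per genotype) and IgG (crosses, 1 library per genotype) in RPM, summed over the promoter peaks of each of the 9 genes. Every Pol II symbol lies above the cross of its genotype, and the lower *Trdn-as* KO square is the library with 18.6% of its reads in peaks.

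The level of Pol II was low throughout. Per kb of peak, the mean normalized count over 6 libraries ran from 39.5 at *C1qa* to 87.2 at *Lyz2*, against a median of 124 over the 12442 genes tested. Between 13.2% and 33.7% of tested genes were below these genes. From the lowest, the order was *C1qa*, *C1qc* with 45.3, *Adgre1* with 47.1, *C1qb* and *Ptprc* with 64.7, *Mrc1* with 70.3, *Spi1* with 72.4, *Cd68* with 73.0 and *Lyz2*. The widest step between neighbors, from *Adgre1* to *C1qb*, exceeded the SD between libraries of one genotype, and the others were narrower. The order depends on which peaks are counted, since peaks with little Pol II lower the value per kb. At the peak of highest Pol II of each gene it ran from 58.6 at *C1qc* to 128 at *Spi1*, with 74.8 at *C1qa*. For comparison, *Myh6*, the alpha myosin heavy chain of cardiomyocytes, had 316 per kb. In estimated reads, a gene sum of one library held from 5.89 reads at *Adgre1* to 168 reads at *Spi1*, so counting error is large for the smallest genes.

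Leukocyte and macrophage surface and lysosomal genes come first. *Ptprc* had a single promoter peak, chr1:138102854-138103095 in GRCm39, with Pol II of 18 and 8 in WT libraries, 23 and 22 in those of *Trdn-as* KO and 12 and 11 in those of *Mettl3* KO. The *Trdn-as* KO libraries were above all others, and WT and *Mettl3* KO overlapped. The log2 fold change of *Trdn-as* KO against WT was 0.85 with a standard error of 0.55 (limma, Benjamini-Hochberg adjusted p = 1), so the difference was within the spread. It was 1.38 without WT 1, 0.31 without WT 2, 0.28 with uniquely mapped reads as library size and 0.30 with the unannotated peaks inside the gene. *Cd68*, a lysosomal glycoprotein of phagocytes, had a broad peak of 1198 nt over its start, chr11:69556315-69557512. Its summed Pol II was 118 and 129 in WT, 88 and 81 with *Trdn-as* KO and 108 and 83 with *Mettl3* KO. Both KO genotypes were below both WT libraries and overlapped each other. The peak over the start alone had 110 and 126 in WT, 85 and 79 with *Trdn-as* KO and 104 and 75 with *Mettl3* KO. The log2 fold change was -0.54 ± 0.25 (SE) for *Trdn-as* KO and -0.38 ± 0.25 for *Mettl3* KO against WT, with limma adjusted p of 0.78 and 0.30, so neither passed. The first was -1.14 with uniquely mapped reads as library size, and the second -0.19 without *Mettl3* KO 2. A larger peak over the 3′ end of *Cd68* is annotated to its neighbor *Mpdu1* and was not counted.

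*Lyz2*, the lysozyme of macrophages and other myeloid cells, had Pol II of 53 and 44 in WT, 47 and 29 with *Trdn-as* KO and 47 and 50 with *Mettl3* KO at its single peak, chr10:117117917-117118432. WT and *Mettl3* KO had the same mean, 48.5, and the low value was that of the *Trdn-as* KO 2 library. Reads shared with the similar *Lyz1* were removed by the authors as multi-mapping, so the value covers unique sequence. *Adgre1*, a surface receptor that marks mouse macrophages, had summed Pol II of 20 and 26 in WT libraries, 22 and 12 in those of *Trdn-as* KO and 26 and 29 in those of *Mettl3* KO. The 3 genotypes lay within 12 to 29, with *Mettl3* KO above *Trdn-as* KO and no separation from WT. Its 2 peaks differed. At the start, chr17:57665529-57665820, Pol II was 12 and 17 in WT libraries, 22 and 12 in those of *Trdn-as* KO and 25 and 24 in those of *Mettl3* KO, which lay above the others (log2 fold change against WT 0.74 ± 0.47, limma adjusted p = 0.45). At 1355 nt the WT libraries, with 8 and 9, lay above *Trdn-as* KO, with 0 and 0, and *Mettl3* KO, with 1 and 5, and the peak was too low to test. *Mrc1*, the mannose receptor CD206 of tissue-resident macrophages, had at its single promoter peak, chr2:14234059-14234326, 25 and 9 in WT, 23 and 20 with *Trdn-as* KO and 22 and 14 with *Mettl3* KO. Here the WT libraries spanned the values of both KO genotypes. None of the 3 genes passed the test in any comparison, with log2 fold changes between -0.72 and 0.48 and limma adjusted p from 0.25 to 1.

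**Figure D2:**
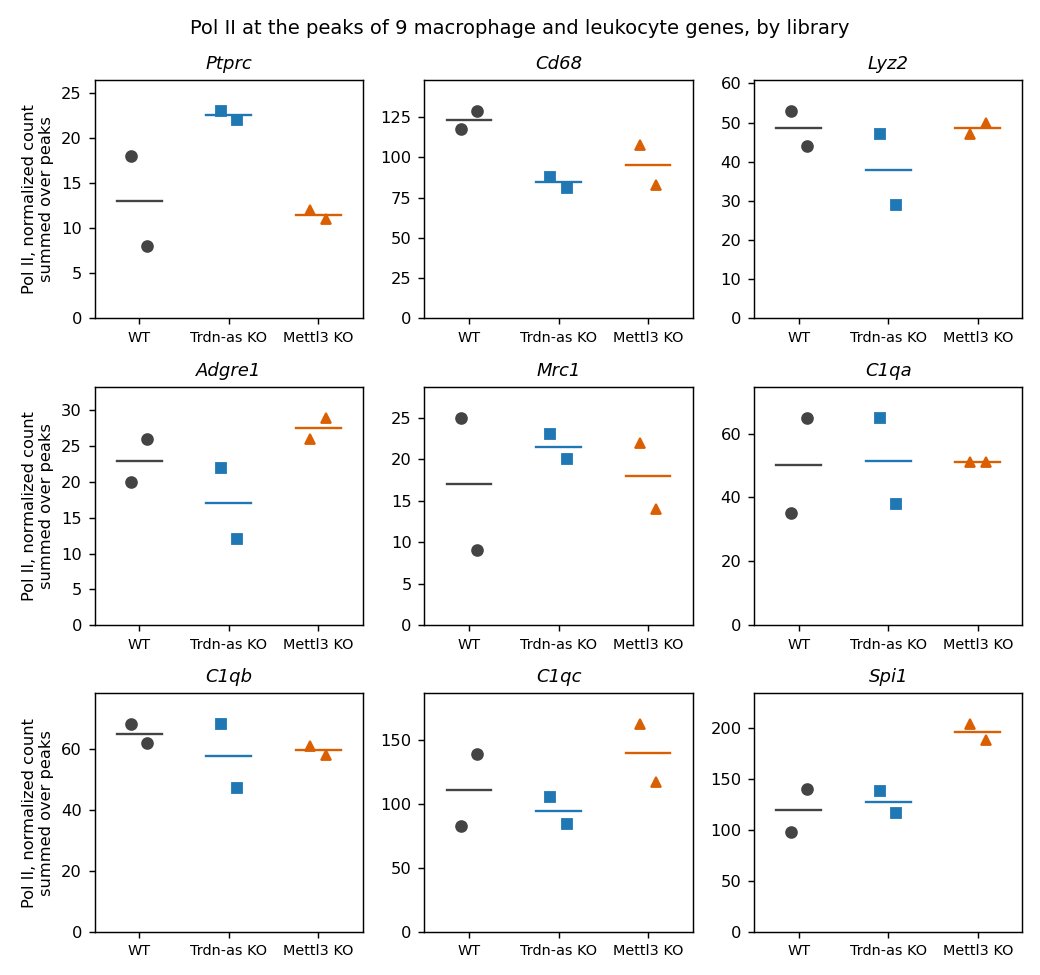
Pol II normalized count summed over the promoter peaks of each gene (vertical axis, from 0), with a point per library and a line at the mean of the 2 libraries of each genotype. *Spi1* is the gene in which *Mettl3* KO (203 and 188) lies above WT (98 and 140), and the libraries of *C1qa*, *Lyz2* and *Mrc1* overlap between WT and *Mettl3* KO.

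The *C1qa*, *C1qb* and *C1qc* genes encode the 3 chains of C1q, the recognition unit of the classical complement pathway, which macrophages produce, and they sit side by side on chromosome 4. Their summed Pol II was 186 and 266 in WT, 238 and 169 with *Trdn-as* KO and 274 and 226 with *Mettl3* KO, so the WT libraries alone differed by more than the genotype means. *C1qa* had 35 and 65 in WT libraries, 65 and 38 in those of *Trdn-as* KO and 51 and 51 in those of *Mettl3* KO. *C1qb* had 68 and 62 in WT, 68 and 47 with *Trdn-as* KO and 61 and 58 with *Mettl3* KO. At the start peak of *C1qa*, chr4:136625924-136626215, Pol II was 14 and 26 in WT, 25 and 12 with *Trdn-as* KO and 27 and 27 with *Mettl3* KO. At that of *C1qb*, chr4:136613260-136613864, it was 53 and 43 in WT, 40 and 37 with *Trdn-as* KO and 46 and 40 with *Mettl3* KO. *Mettl3* KO was the highest at the former and WT overlapped it at the latter, with no call at either. Summed, these 2 genes had means between 50.0 and 65.0 in every genotype, and their log2 fold changes lay between -0.20 and 0.09 with standard errors of 0.30 and 0.32.

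*C1qc* varied more. Its Pol II was 83 and 139 in WT, 105 and 84 with *Trdn-as* KO and 162 and 117 with *Mettl3* KO. *Mettl3* KO was above *Trdn-as* KO without overlap, and WT overlapped both. The log2 fold change of *Trdn-as* KO against *Mettl3* KO was -0.55 ± 0.24 (SE, limma adjusted p = 0.11), which did not pass. At the peak over the *C1qc* start, chr4:136619859-136620546, Pol II was 30 and 53 in WT libraries, 37 and 16 in those of *Trdn-as* KO and 61 and 45 in those of *Mettl3* KO, and the same comparison gave -1.07 ± 0.37 (limma adjusted p = 0.12). A fit without the *Trdn-as* KO 1 library, which leaves alone *Trdn-as* KO 2, the library with 18.6% of reads in peaks, and assumes that it varies like the other genotypes, called *C1qc*, *Adgre1* and *Spi1* higher in *Mettl3* KO than in *Trdn-as* KO, with log2 fold changes of *Trdn-as* KO against *Mettl3* KO of -0.71, -1.13 and -0.75. The same fit called 7867 of all genes, against 758 with every library. Without *Trdn-as* KO 2 the 3 genes were not called, with -0.39, -0.31 and -0.50, and without *Mettl3* KO 1 *C1qc* had -0.31. A peak annotated to *C1qc* at -2861 nt overlaps *C1qa* and was counted under *C1qc* alone.

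*Spi1* alone of the 9 genes passed the test, in *Mettl3* KO against WT, where 3.98% of all tested genes were called. Its call was lost under several settings. It had 11 peaks, the most of the 10 genes, and its 7 promoter peaks summed to Pol II of 98 and 140 in WT, 138 and 116 with *Trdn-as* KO and 203 and 188 with *Mettl3* KO. Both *Mettl3* KO libraries were above every other library, and WT and *Trdn-as* KO overlapped. *Mettl3* KO was higher than WT by a log2 fold change of 0.73 ± 0.22 (SE, limma adjusted p = 0.032). The median change of all tested genes in this comparison was 0.25, so *Spi1* stood 0.49 above it. *Trdn-as* KO differed from WT by 0.11 ± 0.22 (limma adjusted p = 1) and from *Mettl3* KO by -0.62 ± 0.22 (limma adjusted p = 0.059), neither past 0.05. In such bulk tissue, more nuclei of a cell type and more Pol II per nucleus cannot be told apart.

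A single *Spi1* peak was called, in *Mettl3* KO against WT, where 1.19% of all tested peaks were called. It lies inside *Spi1*, 685 nt after the start at its center, at chr2:90913148-90913692 (GRCm39), and was the peak of highest Pol II per kb among the 36. Pol II there was 38 and 54 in WT, 68 and 49 with *Trdn-as* KO and 107 and 102 with *Mettl3* KO. *Mettl3* KO was separate from the other genotypes, which overlapped. The log2 fold change of *Mettl3* KO against WT was 1.19 ± 0.29 (SE, limma adjusted p = 0.023), and that of *Trdn-as* KO against WT was 0.34 ± 0.29 (limma adjusted p = 0.86). In RPM the Pol II was 3.21 and 4.89 in WT libraries, 4.91 and 2.25 in those of *Trdn-as* KO and 8.13 and 8.45 in those of *Mettl3* KO, with IgG between 0.202 and 0.404.

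Not every *Spi1* peak followed. The peak at 2171 nt had 33 and 50 in WT, 44 and 37 with *Trdn-as* KO and 41 and 40 with *Mettl3* KO, and the genotypes overlapped fully. So did they at the peak at 60 nt, which covers the start, with 16 and 6 in WT, 6 and 8 with *Trdn-as* KO and 13 and 5 with *Mettl3* KO. Inside the gene, the peak at 19256 nt had 23 and 15 in WT, 10 and 22 with *Trdn-as* KO and 22 and 18 with *Mettl3* KO, and that at 30393 nt had 19 and 26 in WT libraries, 15 and 26 in those of *Trdn-as* KO and 35 and 16 in those of *Mettl3* KO. The log2 fold change of *Mettl3* KO against WT at these 4 of the 8 tested *Spi1* peaks lay between -0.25 and 0.09. Among the weaker peaks, that at 14378 nt, inside the gene, had 12 and 12 in WT, 11 and 8 with *Trdn-as* KO and 35 and 29 with *Mettl3* KO. It separated *Mettl3* KO from the others, with a log2 fold change against WT of 1.34 ± 0.50 (limma adjusted p = 0.17) that did not pass. The peak at -981 nt had 8 and 6 in WT libraries, 14 and 10 in those of *Trdn-as* KO and 21 and 19 in those of *Mettl3* KO, and the peak at 4000 nt had 1 and 9 in WT, 3 and 4 with *Trdn-as* KO and 13 and 16 with *Mettl3* KO. Both had their highest values in *Mettl3* KO and did not pass, with limma adjusted p of 0.22 and 0.35. A peak over the 3′ end of *Spi1*, annotated to the cardiomyocyte gene *Mybpc3*, had 82 and 68 in WT, 73 and 61 with *Trdn-as* KO and 71 and 82 with *Mettl3* KO and was not counted.

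**Figure D3:**
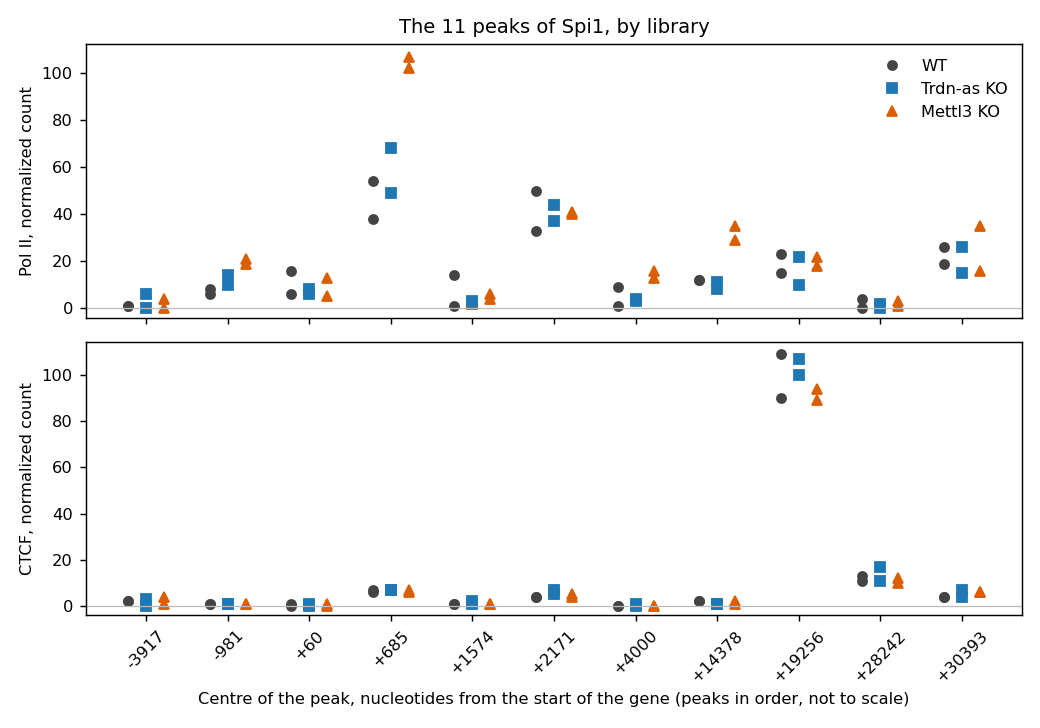
Normalized counts of Pol II (upper panel) and CTCF (lower panel) at the 11 *Spi1* peaks, ordered by the distance of their center from the gene start in nucleotides, with a symbol per library. At 685 nt *Mettl3* KO Pol II (107 and 102) lies above WT and *Trdn-as* KO, while CTCF is concentrated at 19256 nt, with values from 89 to 109 that overlap between WT and *Trdn-as* KO.

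The *Spi1* calls rested on 4 libraries. Leaving out any of the WT or *Mettl3* KO libraries ended both calls, with log2 fold changes from 0.48 without WT 1 to 0.99 without WT 2 for the gene, and from 0.94 to 1.44 for the peak in the same order. Without *Mettl3* KO 1 or *Mettl3* KO 2 the gene had 0.68 and 0.79 and the peak 1.15 and 1.22. These fits leave a genotype with 1 library and called few features anywhere, from 0 to 13 of all peaks and 29 to 73 of all genes, so the loss is not particular to *Spi1*. Scaling to uniquely mapped reads ended both calls as well, with log2 fold changes of 0.59 for the gene and 1.05 for the peak. So did a fit without the variance trend (limma adjusted p = 0.22 for the gene and 0.35 for the peak). The replicate block ended the call of the gene (limma adjusted p = 0.058), and testing without the filter on low values ended that of the peak (limma adjusted p = 0.39).

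Counted over peaks, 25 of the 36 had a value of at least 10 in 2 or more Pol II libraries and were tested. Of these, 0 were called in *Trdn-as* KO against WT, where 0.304% of all tested peaks were called, and 1 had p under 0.05 before adjustment, beside 7.70% of all peaks. In *Mettl3* KO against WT, 1 was called, the *Spi1* peak, against 1.19% of all peaks, and 3 had an unadjusted p under 0.05, beside 15.5%. In *Trdn-as* KO against *Mettl3* KO, 0 were called against 1.50%, and 4 had an unadjusted p under 0.05, beside 17.9%. Over the 9 gene sums, 0 were called in *Trdn-as* KO against WT (0.354% of all genes), 1 in *Mettl3* KO against WT (3.98%) and 0 in *Trdn-as* KO against *Mettl3* KO (6.09%), with 1, 1 and 2 genes at an unadjusted p under 0.05 beside 5.61%, 25.0% and 30.6% of all genes. The first 2 comparisons share the WT libraries. The median log2 fold changes of the 9 genes were -0.19, 0.09 and -0.16, beside medians of -0.03, 0.25 and -0.28 over all tested genes. After rescaling to uniquely mapped reads the medians of all genes became -0.63, 0.11 and -0.74, and directions are given on the authors' scaling. *Trdn-as* KO 2 is the library with the low share of reads in peaks, and its part in this shift was not tested.

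Summed over the 9 genes, Pol II was 518 and 622 in WT libraries, 579 and 449 in those of *Trdn-as* KO and 692 and 601 in those of *Mettl3* KO. WT overlapped both KO genotypes, and the *Trdn-as* KO libraries lay below those of *Mettl3* KO. The overlap of WT and *Trdn-as* KO holds on the authors' scaling, and in RPM, given above, they did not overlap, *Trdn-as* KO being the lower. The mean of *Trdn-as* KO was 0.902 times and that of *Mettl3* KO 1.13 times the WT mean, with SDs of 73.5 in WT, 91.9 with *Trdn-as* KO and 64.3 in *Mettl3* KO (n = 2 libraries each). Relative to the signal in all peaks of the same library, the ratios were 0.927 and 1.02, and in RPM they were 0.624 and 1.02.

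A wider list of macrophage and leukocyte genes was read beside the 9. Of its 40 genes, 31 had a peak under their symbol and 30 were tested. In *Trdn-as* KO against WT 0 were called. In *Mettl3* KO against WT 1 was called higher, where 3.98% of all genes were called. In *Trdn-as* KO against *Mettl3* KO 1 was called lower, where 6.09% were called. These counts are no larger than the share of all genes gives, and nothing is read from them about the list. Their medians were -0.12, 0.31 and -0.38, close to those of all genes. The gene called higher was *Axl*, a receptor tyrosine kinase used in clearing dying cells that is also expressed outside macrophages, with Pol II of 191 and 252 in WT, 292 and 221 with *Trdn-as* KO and 311 and 367 with *Mettl3* KO. *Mettl3* KO was above WT without overlap, by a log2 fold change of 0.62 ± 0.19 (limma adjusted p = 0.033). The gene called lower was *Tyrobp*, which encodes the signaling adaptor DAP12, with 52 and 36 in WT, 40 and 16 with *Trdn-as* KO and 52 and 72 with *Mettl3* KO. Its lowest value was that of *Trdn-as* KO 2, and the difference was -1.24 ± 0.35 (limma adjusted p = 0.017).

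Marker lists of other cell types of the heart were read in the same way, with no test between lists. Of all tested genes, 0.354% were called in *Trdn-as* KO against WT. The share was 3.98% in *Mettl3* KO against WT and 6.09% in *Trdn-as* KO against *Mettl3* KO. Of 6 fibroblast markers, 4 were called higher in *Mettl3* KO than in WT, *Col3a1*, *Col1a1*, *Pdgfra* and *Tcf21*, with log2 fold changes of 1.42, 1.24, 0.92 and 0.71 and a list median of 0.84. Their summed Pol II was 1479 and 1636 in WT libraries, 2157 and 1630 in those of *Trdn-as* KO and 2968 and 2898 in those of *Mettl3* KO, so both *Mettl3* KO libraries were above all others. In RPM they were 125 and 148 in WT, 156 and 75.0 with *Trdn-as* KO and 225 and 240 with *Mettl3* KO, so *Mettl3* KO was again above all others, while the mean of *Trdn-as* KO, above that of WT in normalized counts, was below it in RPM. This rise goes with that of *Spi1* and *Axl* in the same libraries, and its part in them was not tested. *Col3a1*, *Col1a1* and *Pdgfra* were also called higher in *Mettl3* KO than in *Trdn-as* KO. Of 7 cardiomyocyte markers tested, 0 were called against WT and *Myh6* was called higher in *Mettl3* KO than in *Trdn-as* KO. The sums over this list lay between 25145 and 26794 in 5 libraries and at 19001 in *Trdn-as* KO 2. The MerCreMer transgene of *Mettl3* KO is under the alphaMHC promoter, that of *Myh6*, and its part in the *Myh6* values was not tested.

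Of 5 endothelial markers tested, led by *Tie1* with 148 per kb, 0 were called. Of 6 mural cell markers, led by *Rgs5* with 112 per kb, 0 were called against WT. *Pdgfrb* and *Tagln* were called higher in *Mettl3* KO than in *Trdn-as* KO, where 6.09% of all genes were called. Markers of other leukocytes were mostly without a peak under their symbol. *Mb* of the cardiomyocyte list and *Pecam1* of the endothelial list also had none. Peaks under no symbol were not searched for these lists, so a missing peak does not show missing signal. A peak was found for 2 of 6 T cell markers, where *Cd4* had 44.4 per kb, for 1 of 5 B cell markers, *Cd79b* with 54.0, for 1 of 4 neutrophil markers, too low to test, and for 2 of 4 adipocyte markers, where *Plin1* had 9.43. In RPM, Pol II of *Plin1* was not above IgG in WT, with 2.11 and 1.99 against 2.26, or in *Mettl3* KO, with 1.37 and 2.24 against 2.80, nor was that of *Cd4* in *Trdn-as* KO 2, with 0.552 against 0.954. None of these was called in any comparison. *Cd79b* had Pol II of 33 and 21 in WT, 13 and 10 with *Trdn-as* KO and 33 and 18 with *Mettl3* KO, and its *Trdn-as* KO libraries lay below all others.

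**Figure D4:**
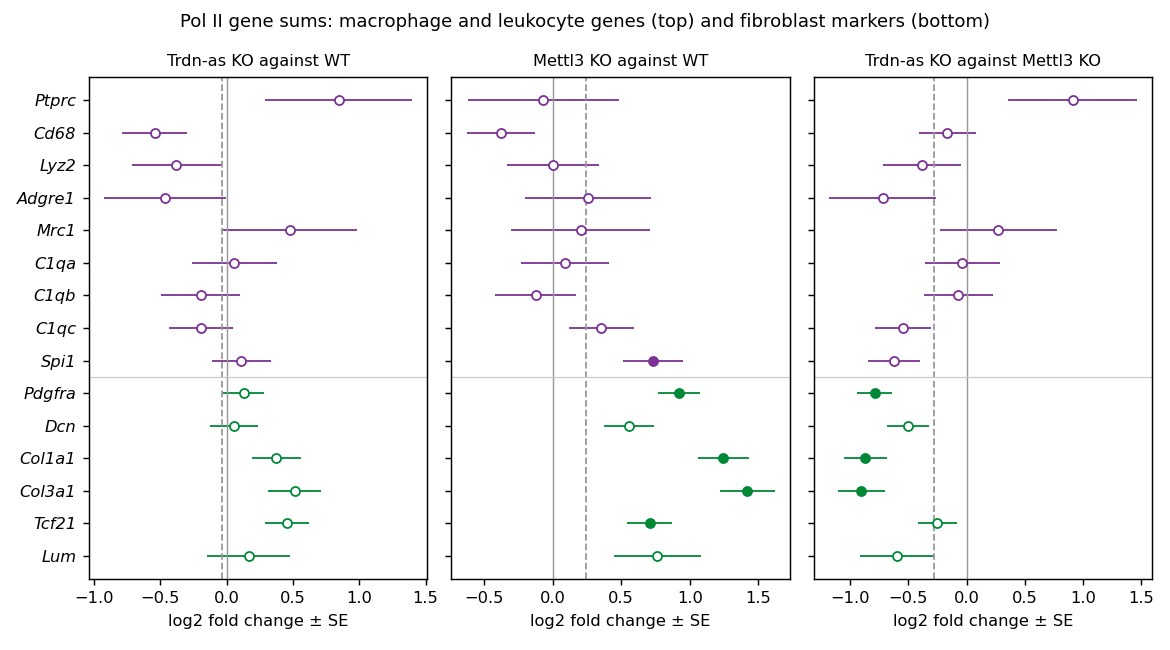
Log2 fold change of Pol II gene sums (horizontal axis, bars are limma standard errors) in the 3 comparisons, for the 9 macrophage and leukocyte genes (purple) and the 6 fibroblast markers (green). Filled points passed an adjusted p of 0.05, the solid line is 0 and the dashed line the median of all tested genes, and in *Mettl3* KO against WT *Spi1* and 4 fibroblast markers are filled.

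CTCF was highest at peaks low in Pol II. The union holds peaks called on either target, so a peak low in Pol II is often there for its CTCF. This contrast was thus partly fixed by the choice of regions. Of the 36 peaks, 7 reached the CTCF minimum, 4 of which were also tested for Pol II, 8 reached neither, and all 6 CTCF libraries exceeded the 3 IgG libraries in RPM at 12. At 5 of these 12 all 6 Pol II libraries did so too, and they include the *Cd68* start and the called *Spi1* peak. The strongest sites lay inside genes and far from the start. The site in *Mrc1* at 66055 nt, chr2:14299867-14300649, had CTCF of 115 and 90 in WT libraries, 107 and 124 in those of *Trdn-as* KO and 95 and 99 in those of *Mettl3* KO, with Pol II from 3 to 15. The site in *Spi1* at 19256 nt, chr2:90931520-90932462, had CTCF of 109 and 90 in WT, 100 and 107 with *Trdn-as* KO and 94 and 89 with *Mettl3* KO. At both sites WT overlapped each KO genotype. The site at -1178 nt of *C1qc*, between *C1qc* and *C1qa*, had 35 and 41 in WT, 41 and 43 with *Trdn-as* KO and 39 and 39 with *Mettl3* KO.

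Weaker CTCF sites were found in *C1qa* at -501 nt (14 to 21 over the 6 libraries), in *Ptprc* at 89715 nt (13 to 23), in *Spi1* at 28242 nt (10 to 17) and at the *Cd68* start (10 to 18). The called *Spi1* Pol II peak had CTCF of 6 or 7 in every library, below the minimum for testing. Of the 7 peaks, 0 were called in *Trdn-as* KO against WT (0.587% of all tested peaks called), 0 in *Mettl3* KO against WT (0.185%) and 0 in *Trdn-as* KO against *Mettl3* KO (1.37%) by limma, and 0 had an unadjusted p under 0.05 in any of them, beside 10.2%, 15.7% and 18.8% of all peaks. Their log2 fold changes lay between -0.12 and 0.35. The difference nearest to a call was that of the *Mrc1* site between *Trdn-as* KO and *Mettl3* KO, 0.25 ± 0.12 (limma adjusted p = 0.27).

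**Figure D5:**
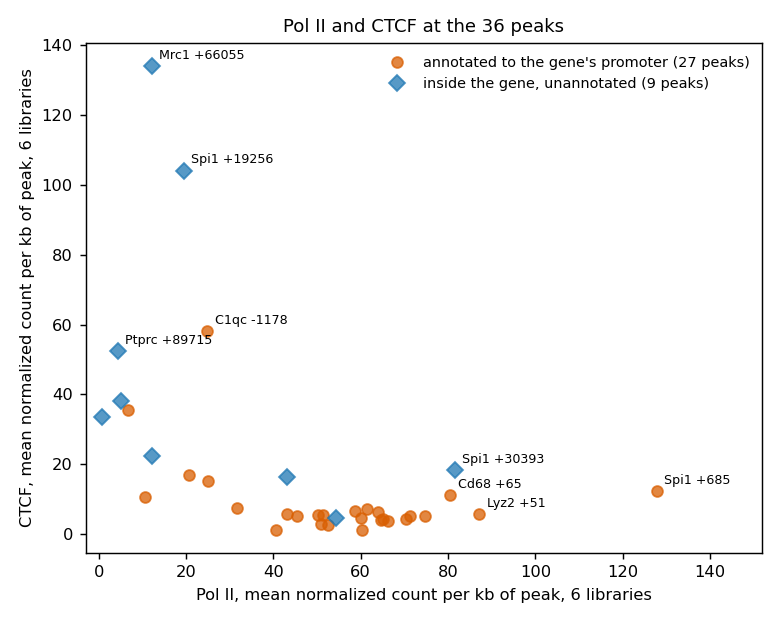
Mean normalized count per kb of peak over 6 libraries, Pol II on the horizontal and CTCF on the vertical axis, for the 27 promoter peaks (circles) and the 9 unannotated peaks inside genes (diamonds), with distance from the gene start in nucleotides. The highest CTCF is at *Mrc1* (134 per kb) and *Spi1* (104 per kb) inside the gene, where Pol II is 12.1 and 19.4 per kb, and the *Spi1* peak at 685 nt has the highest Pol II (128 per kb).

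The genes most like the sum of the 9 across the 6 Pol II libraries, by Pearson correlation of log2 values, were *Ccdc97*, *Tgfbr3*, *Gm12258*, *Siah1b* and *Dscc1*, with r from 0.994 to 0.995. These points share their libraries and scaling, and the values are a description over 6 libraries chosen as the highest among all genes. *Tgfbr3*, a coreceptor of TGF-beta ligands, had 332 and 394 in WT libraries, 382 and 285 in those of *Trdn-as* KO and 443 and 391 in those of *Mettl3* KO.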

How the data were processed

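Pol II, CTCF and IgG ChIP-seq libraries of mouse ventricles were analysed, and the 3 input libraries were not analysed here. Per the methods and the submitters' processing notes, the authors trimmed reads with Trimmomatic 0.39, aligned them to mm39 with STAR 2.7.11b, took out duplicates (Picard 3.1.1), spliced reads, reads of ribosomal or mitochondrial origin and those with several positions, called and unified peaks with MACS, counted reads with featureCounts and divided them by DESeq2 1.36.0 size factors. The deposited values are normalized counts rounded to whole numbers and were treated as a score, not as read counts, so no count model was used, although the design had allowed for one.

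Values were tested with limma 3.58.1 in R 4.3.3 on log2(value + 1), with a variance trend, all 6 libraries of a target and 3 genotypes in the model, at a Benjamini-Hochberg adjusted p of 0.05. Peaks or gene sums that reached 10 in 2 or more libraries were tested, and adjustment was over all of them. A fold change on this scale understates the change of low genes. A gene sum adds the peaks annotated to the symbol. In simulated tables with 200 features changed by a log2 of 2, limma gave back 92.5% among 51752 Pol II peaks, 100% among 60215 CTCF peaks and 99.5% among 12398 gene sums in *Trdn-as* KO against WT. The changed features were drawn from those of higher mean value, with a fixed spread, and smaller changes were not simulated. These shares thus do not apply to the member peaks, whose median of mean Pol II was 12.6.

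The value of 1 read was estimated per library from the spacing of its values (0.944 to 2.04 for Pol II, 0.284 to 0.458 for CTCF, 2.55 to 6.56 for IgG) and gave RPM with the uniquely mapped reads stated by the study. Steps below 1 make CTCF reads estimates. Intervals and limits from counts cover counting error only.

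The members, lists and tests were chosen with earlier results of these data known. Named were all 10 members, for the 9 with a peak also that of highest Pol II, genes of the wider list that were called, the marker of most Pol II per kb from each cell type list, and the 5 genes most alike. The fibroblast, mural and cardiomyocyte genes named as called and the individual *Spi1* peaks were chosen after their values were seen. Alternatives were other library sizes, no filter, a pseudocount of 5, no variance trend, only the genotypes compared, a replicate block, and leaving out each library, with peaks inside genes and a crossed block added after seeing the data. Replicate numbers did not mark pairs by the labels. Python 3.11.15 with pandas 2.3.3 and matplotlib 3.10.9 did the rest.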

Additional observations from a re-analysis of the deposited data

Results flagged for a closer look

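Signal appeared in peaks that enter no comparison above. In GRCm38 *Csf1r* lies between *Pdgfrb* and *Hmgxb3*, and the table holds 4 unannotated peaks between these neighbors in GRCm39. At 2 of them every Pol II library lay above all IgG libraries in RPM, an order that the calling of peaks on these same libraries favors. The first, 257 nt long, had normalized Pol II of 14 and 26 in WT, 17 and 8 with *Trdn-as* KO and 22 and 18 with *Mettl3* KO, and its lowest library had 0.368 RPM against at most 0.144 for IgG. The second, 240 nt long, had 12 and 12 in WT, 16 and 8 with *Trdn-as* KO and 24 and 5 with *Mettl3* KO, with a lowest library of 0.368 RPM against at most 0.190 for IgG. WT overlapped both KO genotypes at both peaks, and at the first the *Trdn-as* KO libraries lay below those of *Mettl3* KO. Whether the peaks lie in *Csf1r* could not be read from the table.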

How the results depend on the processing

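The smallest size of change that 2 libraries per genotype could show was not tested. In *Mettl3* KO against WT the count of called member peaks, 1, became 0 with uniquely mapped reads as library size, without the filter and without the variance trend, and 2 with only the genotypes compared. The count of called gene sums, 1, became 0 with uniquely mapped reads, without the variance trend and with the replicate block. For *Trdn-as* KO against *Mettl3* KO, 0 became 1 with a pseudocount of 5 (peaks) and 1 with unannotated peaks inside genes (gene sums, chosen after seeing the data), in both cases *Spi1*, lower in *Trdn-as* KO. Leaving out a library gave 0 to 1 called peaks and 0 to 1 gene sums in *Mettl3* KO against WT, and 0 to 4 and 0 to 3 in *Trdn-as* KO against *Mettl3* KO, the highest without *Trdn-as* KO 1. The cause was not tested. The other counts kept their side. The *Spi1* gene sum passed in 4 of 7 other settings (adjusted p by limma from 0.0016 to 1) and 2 of 6 without a library, and its peak in 3 of 6 (0.0083 to 0.86) and 2 of 6, always higher in *Mettl3* KO.

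Directions of genes that did not pass were less stable. With uniquely mapped reads the log2 fold change of *Trdn-as* KO against WT reversed to -0.53 for *C1qa*, -0.086 for *Mrc1*, -0.49 for *Spi1* and -0.25 for the *Spi1* peak, that of *Mettl3* KO against WT to -0.045 for *C1qa* and -0.13 for *Lyz2*, and that of *Trdn-as* KO against *Mettl3* KO to -0.16 for *Mrc1*. With unannotated peaks inside genes, *Ptprc* in *Mettl3* KO against WT reversed to 0.013. Leaving out a library gave, in *Trdn-as* KO against WT, -0.38 to 0.49 for *C1qa*, -0.46 to 0.066 for *C1qb*, -0.56 to 0.18 for *C1qc*, -0.21 to 1.17 for *Mrc1* and -0.14 to 0.37 for *Spi1*. In *Mettl3* KO against WT it gave -0.34 to 0.53 for *C1qa*, -0.014 to 0.72 for *C1qc*, -0.13 to 0.14 for *Lyz2*, -0.49 to 0.89 for *Mrc1* and -0.61 to 0.47 for *Ptprc*. In *Trdn-as* KO against *Mettl3* KO it gave -0.42 to 0.34 for *C1qa*, -0.33 to 0.19 for *C1qb*, -0.35 to 0.024 for *Cd68* and -0.035 to 0.58 for *Mrc1*.

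Counts over all features moved more. Called gene sums in *Mettl3* KO against WT ran from 2 to 5627 over the other settings, beside 495, and in *Trdn-as* KO against *Mettl3* KO from 22 to 960, beside 758. Called Pol II peaks ran from 4 to 230, 2 to 4891 and 12 to 1282, beside 160, 629 and 790, and called CTCF peaks from 40 to 503, 0 to 151 and 28 to 908, beside 356, 112 and 828. Leaving out a library gave 17 to 2185, 0 to 4975 and 11 to 9789 called Pol II peaks, 1 to 40, 0 to 0 and 1 to 26 called CTCF peaks and 8 to 2701, 29 to 5610 and 38 to 7867 called gene sums (44, 495 and 758 with every library), so the shares of all features called are no fixed benchmark. The labels give replicate numbers but no pairing. Deviations of same-numbered libraries had correlations from -0.0096 to 0.0059, apart from -0.24 between WT and *Trdn-as* KO for CTCF. The cause of that value was not tested. The block gave 300 called gene sums in *Mettl3* KO against WT. With the CTCF numbers of WT and *Trdn-as* KO crossed, chosen after seeing the data, 0 member peaks and 503 of all peaks were called. The block with the numbers of the labels called 236 of all peaks in that comparison. Summing only promoter peaks changed nothing, since every annotated peak is one.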
